A study of Mus musculus with 15 samples.

Results

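Gene expression in the striatum was compared between mouse pups whose mothers had been exposed to aerosols of the herbicide paraquat during gestation and pups of the control group. The comparison rests on 7 of the 15 RNA sequencing libraries of the study, 3 from the paraquat group and 4 from the control group, and on all 15569 genes of the deposited table, of which 15556 were tested. All libraries came from C57Bl/6J mice at postnatal day 14, with no transgene or deletion named in the labels. The labels give the treatment of the control group as Untreated and name no dose, exposure schedule, sham aerosol, litter or sex, and nothing there says that the libraries of a group came from separate litters, so the p-values reflect the spread among these libraries alone, which may be technical. The other 8 libraries, 4 after aerosols of TiO2 nanoparticles and 4 after both agents together (the mixture), entered the fit so that all groups shared an estimate of the spread. Values below are normalised read counts, given in library order (control 1 to 4, then paraquat 1 to 3), and each fold change is a difference of log2(value + 1) with the standard error of the limma fit. A gene is said to have risen or fallen only where its Benjamini-Hochberg adjusted limma p was under 0.05.

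Paraquat accepts single electrons from flavoenzymes such as cytochrome P450 reductase (Por) and passes them to oxygen, which yields superoxide and regenerates the compound. It is widely used in animal models of parkinsonism, a disorder of the dopamine neurons that project to the striatum. The striatum itself consists mainly of medium spiny neurons, GABA-releasing cells that express dopamine receptors and receive glutamatergic axons from cortex and thalamus. In mice the weeks after birth are also when striatal oligodendrocytes mature and wrap axons in myelin.

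Depth ran from 8690925 to 14207513 reads over the 7 libraries, with paraquat 3 the deepest. The tissue label was checked on markers of medium spiny neurons: Ppp1r1b, which encodes DARPP-32, stood at 8999 to 12262, Drd1 at 2614 to 3193 and Adora2a at 2497 to 3258, with none near 0 in any library. Xist, the RNA of the inactive X chromosome, stood at 10604 to 22359 in control 1, control 3 and paraquat 2 and at 0.983 to 19.9 in the other 4 libraries, so both groups held libraries of each kind. Mitochondrial transcripts took 21.2, 21.4, 19.7 and 21.8% of the signal in the control libraries and 16.8, 18.5 and 18.2% after paraquat. The difference of means was −3.16 percentage points (exact two-sided permutation test, p = 0.0286, the smallest that 4 against 3 libraries can give, and 0.0857 after adjustment over 3 such measures), and the groups did not overlap.

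Paraquat libraries differed from control libraries in 10.4% of the tested genes: 1617 genes were called, 986 higher (6.34%) and 631 lower (4.06%). All counts of called list members below are to be read beside these shares. Most of these differences were small. Of the genes that rose, 71 did so by more than 2-fold and 65.7% by less than 1.5-fold, and of those that fell 11 passed 2-fold and 86.5% stayed under 1.5-fold. The median log2 fold change over all tested genes was −0.007. Among the rises, paraquat 3 was the highest of the 3 paraquat libraries in 557 genes and paraquat 2 the lowest in 579, so these libraries took unequal parts in the extremes. The number of calls fell to 665 without paraquat 3, to 736 without paraquat 1, to 839 without control 1 and to 1030 without control 4. Of the 187 called genes that the naming rule selected, 72 kept an adjusted p under 0.05 under every alternative that gave a value. The called genes named below belong to those 72 unless a loss is stated beside them, except Kcna1, which the rule did not select and which also kept its call throughout.

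**Figure D1:**
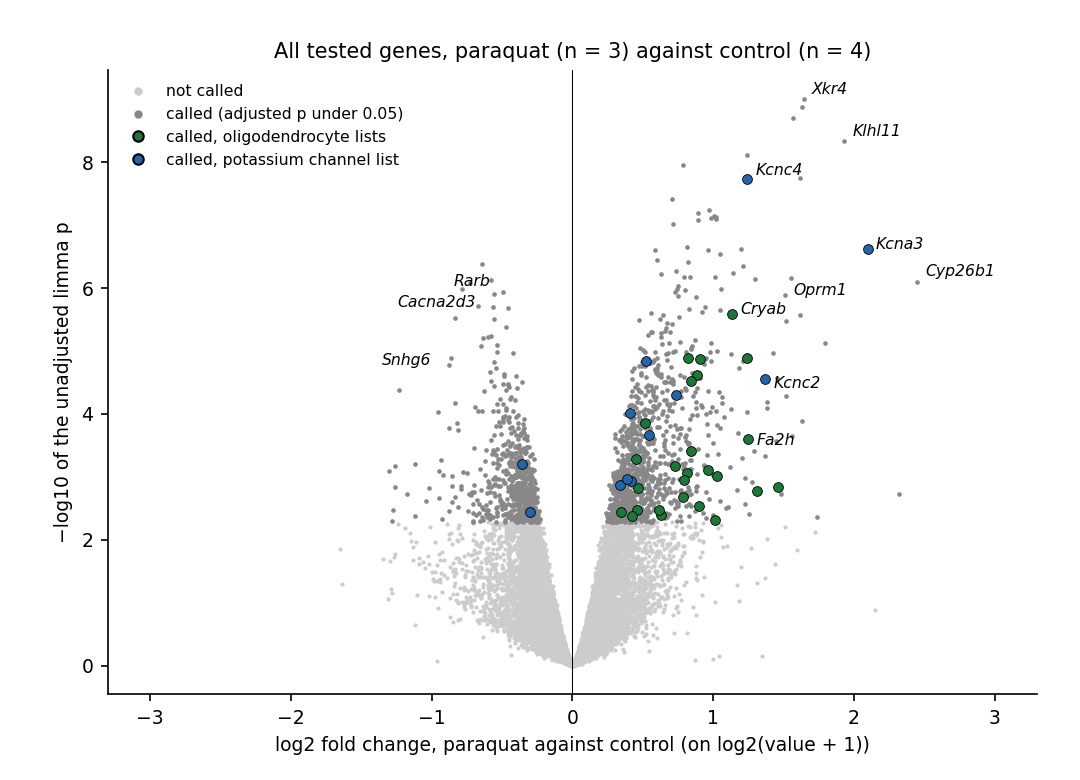
Each point is 1 of the 15556 tested genes, with the log2 fold change of paraquat against control on the horizontal axis and the −log10 of the unadjusted limma p on the vertical axis. Called genes of the oligodendrocyte lists (green) all lie on the side of the rises, called Kcna to Kcnd channel genes (blue) lie there except for 2, and the largest rises reach further from 0 than the largest falls of similar p.

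Genes of myelinating oligodendrocytes were higher after paraquat. The compact myelin list holds Mbp and Mobp, which bind the cytoplasmic faces of the membrane, and Cldn11, which seals the myelin layers. It also holds Cnp and Mag, which sit in non-compact parts of the sheath, Cnp in its cytoplasmic channels and Mag on the side facing the axon. The transcription factors MYRF and SOX10 act on myelin genes, and their part in these rises was not tested. Promoter sequences of 5 risers from this list are shown. They are the 250 bases before a RefSeq transcription start in GRCm38.p6, written 5′ to 3′ on the strand of the gene, at chr9:120149492-120149741 (plus strand), chr11:100574689-100574938 (plus strand), chr7:30914923-30915172 (minus strand), chr3:31149670-31149919 (plus strand) and chr6:25689981-25690230 (minus strand). The start shown for Mag is the most upstream of 3. Capitals mark matches on either strand to the letters CTGGNAC, a core of the MYRF motif, or ACAAAG, a core of the SOX motif.
Mobp: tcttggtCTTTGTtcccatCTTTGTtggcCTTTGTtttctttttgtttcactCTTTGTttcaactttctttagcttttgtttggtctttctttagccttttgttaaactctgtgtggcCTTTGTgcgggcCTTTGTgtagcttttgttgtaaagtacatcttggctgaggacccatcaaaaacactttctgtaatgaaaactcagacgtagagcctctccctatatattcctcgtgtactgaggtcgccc
Cnp: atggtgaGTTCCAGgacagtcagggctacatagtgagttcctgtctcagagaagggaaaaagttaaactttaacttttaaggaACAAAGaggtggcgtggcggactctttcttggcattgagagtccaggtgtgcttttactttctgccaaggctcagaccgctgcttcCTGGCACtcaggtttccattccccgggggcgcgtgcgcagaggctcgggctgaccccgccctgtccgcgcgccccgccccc
Mag: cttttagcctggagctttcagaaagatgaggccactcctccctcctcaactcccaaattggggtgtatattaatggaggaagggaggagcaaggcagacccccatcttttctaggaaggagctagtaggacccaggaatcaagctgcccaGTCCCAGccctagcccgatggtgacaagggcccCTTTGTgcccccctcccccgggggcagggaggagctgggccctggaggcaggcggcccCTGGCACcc
Cldn11: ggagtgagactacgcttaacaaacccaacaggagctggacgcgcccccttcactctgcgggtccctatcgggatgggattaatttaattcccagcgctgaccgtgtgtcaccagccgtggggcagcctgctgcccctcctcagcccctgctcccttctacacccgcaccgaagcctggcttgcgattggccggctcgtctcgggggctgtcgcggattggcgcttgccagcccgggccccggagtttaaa
Gpr37: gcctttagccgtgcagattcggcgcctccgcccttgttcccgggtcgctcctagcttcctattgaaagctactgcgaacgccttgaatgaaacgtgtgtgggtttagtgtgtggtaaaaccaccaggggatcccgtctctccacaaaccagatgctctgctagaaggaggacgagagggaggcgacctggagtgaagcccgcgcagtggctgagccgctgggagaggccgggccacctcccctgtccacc

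The Mobp window held 6 matches to the SOX letters and 0 to the MYRF letters, while the windows of Cnp and Mag each held 2 matches to the MYRF letters and 1 to the SOX letters. Cldn11 and Gpr37 had no match in this window. For shares over genes, a gene counted if the 250 bases before any of its starts held a match, whereas each sequence shown is of 1 start. Of the 10925 tested genes with a promoter entry, 18.1% held the MYRF letters and 14.4% the SOX letters. Entries existed for 16 of the 26 called oligodendrocyte genes (61.5%), and 3 of these held the MYRF letters (18.8%) and 5 the SOX letters (31.2%). The MYRF share was near that of all tested genes. With so few genes the shares were not tested against each other. Cnp and Mag were chosen for their promoters, so the 5 windows shown do not represent the group. A match describes letters and not a bound site.

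Mbp stood at 20283, 24351, 14840 and 21810 in the control libraries and at 39069, 37841 and 40417 after paraquat (log2 fold change 0.97 ± 0.22, adjusted p = 0.0179). All 3 paraquat libraries lay above all 4 controls, and control 3 was the lowest of the 7. Mobp went from 4578, 5320, 3345 and 5321 to 8754, 8712 and 10529 (1.03 ± 0.24, adjusted p = 0.02), and Cldn11 from 1610, 1883, 1251 and 1689 to 2862, 2686 and 2837 (0.81 ± 0.19, adjusted p = 0.019). The same gap appeared for Cnp, at 1806, 2120, 1428 and 1701 against 3175, 2783 and 3086, and for Mag, at 825, 1158, 663 and 898 against 1864, 1640 and 1763. Cnp and Mag fall outside the naming rule and were chosen after their values were seen, for their promoters. With adjusted p of 0.0296 and 0.048 their calls were close to the threshold. Without paraquat 1 the adjusted p was 0.0632 for Mbp, 0.0574 for Mobp, 0.0719 for Cldn11, 0.108 for Cnp and 0.144 for Mag. Without paraquat 3 it was 0.0745, 0.0858, 0.0771, 0.107 and 0.123 in the same order. Cnp was also lost without control 1, 3 or 4 (up to 0.0659), and Mag without any of the 7 libraries except control 2 (up to 0.144) and with the GC trend removed (0.0729). Gpr37, a receptor of maturing oligodendrocytes, went from 249, 256, 190.4 and 273 to 441, 431 and 484 (0.91 ± 0.16, adjusted p = 0.00185) and kept its call without any 1 library.

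Of the 13 tested compact myelin genes 9 rose and none fell, at a median log2 fold change of 0.81 against −0.007 for all genes, and in 12 of the 13 the paraquat libraries lay wholly above the controls, which 11% of all tested genes did. The compact myelin count changed when single libraries were left out, with 1 gene called without paraquat 3, 3 without paraquat 1 and 5 without control 3 or paraquat 2. Of 12 lineage transcription factors 6 rose, at a median of 0.44. Sox10, which specifies the lineage, went from 460.0, 507, 488 and 494 to 956, 699 and 952 (0.82 ± 0.14, adjusted p = 0.00183). Its paraquat values stood apart from a narrow control range, and paraquat 2 was the lowest of them. Myrf, which switches on myelin genes, went from 238, 282, 314 and 305 to 475, 473 and 641 (0.89 ± 0.16, adjusted p = 0.00253). Olig1, a factor of the whole lineage, rose by 0.52 ± 0.11, a call that ended when the GC trend was removed (adjusted p = 0.0511). With that correction 3 factors were called, and 3 were called without control 1, without paraquat 1 or without paraquat 3.

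Of 19 tested enzymes and contact proteins of maturing oligodendrocytes 12 rose, at a median of 0.74, and 11 were called with the GC trend removed, 6 without paraquat 1 and 5 without paraquat 3. Fa2h, a hydroxylase of fatty acids for myelin galactolipids, went from 474, 500.5, 418 and 584 to 1100, 1002 and 1452 (1.25 ± 0.25, adjusted p = 0.00945). Gal3st1, which adds the sulfate of sulfatide, a myelin glycolipid, went from 284, 302, 209.6 and 258 to 487, 385 and 555 (0.85 ± 0.16). Neither gene showed any overlap between the groups. Cryab, a small heat shock protein abundant in oligodendrocytes, rose from 262, 285, 227 and 345 to 480.3, 714 and 653 (1.13 ± 0.17, adjusted p = 0.000697), although Hspb2 overlaps it on the other strand and shares its position. Gjb1, connexin 32, rose from 33.1, 45.4, 21.3 and 39.3 to 94.3, 104 and 85.6 (1.46 ± 0.38, adjusted p = 0.0247), with the call lost without control 1 (0.0601) or paraquat 1 (0.0812), 2 (0.0537) or 3 (0.0644). Across the 3 lists 43 genes were tested and 26 rose, beside 6.34% of all tested genes. In each of those 26 the lowest paraquat library lay above the highest control. The calls rest on the same values, so this separation is no further support.

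**Figure D2:**
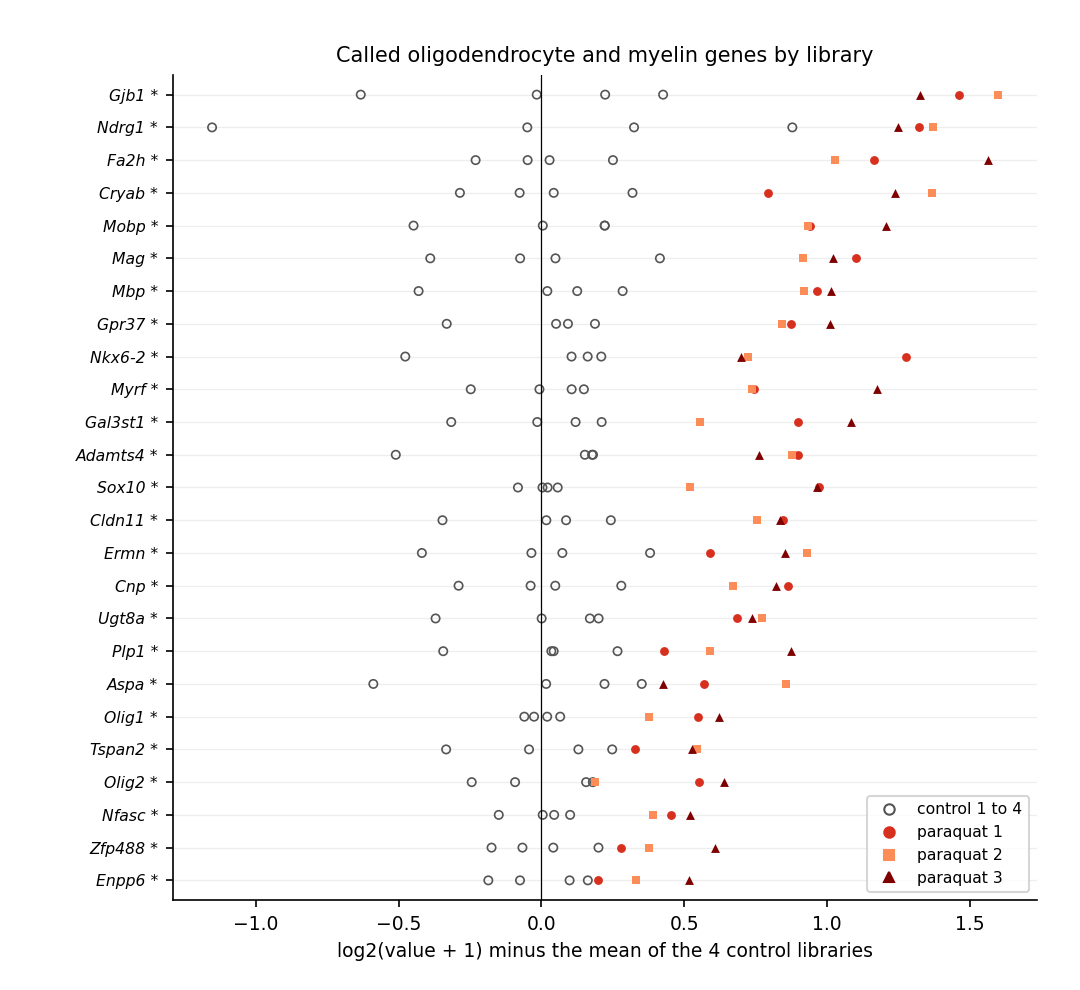
Rows are 25 of the 26 called genes of the 3 oligodendrocyte lists, and the horizontal axis gives log2(value + 1) minus the control mean for the 4 control libraries (open circles) and the 3 paraquat libraries (filled). Every filled symbol lies to the right of every open circle of its row, in rows picked by their calls on these same values. The leftmost circle comes from 1 control library, number 3, in all 9 rows of compact myelin genes.

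The summed signal of the compact myelin list ran from 42274 to 63222 in control and from 91863 to 105847 after paraquat. In bulk tissue a larger number of oligodendrocytes and more RNA per cell cannot be told apart. Markers of cortical and other glutamatergic neurons were also higher, as given below, and their part in these rises was not tested. Fewer markers of oligodendrocyte precursors than of mature cells were called: of 12 tested, Gpr17 alone rose and none fell, at a median of 0.15. At an unadjusted limma p under 0.05, 5 of the 12 were higher and none lower, beside 2174 higher of 15556 tested genes. The difference between the lists was not tested. Gpr17, a receptor of committed precursors, rose by 0.36 ± 0.09 a call that ended when control 1, paraquat 1 or paraquat 3 was left out (0.0789 at most). Pdgfra, the growth factor receptor of precursors, stood at 939, 907, 912 and 909 in control and at 834, 704 and 994 after paraquat and was not called. The neuregulin receptor Erbb3, which oligodendrocytes use, rose from 72.5, 84.6, 77.7 and 124 to 167, 143 and 167 (0.85 ± 0.18, adjusted p = 0.00575).

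Some genes of lipid synthesis were called higher, beside 6.34% of all tested genes. Of 21 genes of cholesterol synthesis 3 rose (1 without paraquat 3), at a median of 0.03, and Hmgcs1, an early enzyme of the pathway, was not called (0.01 ± 0.09). Fold changes on the cholesterol list were positive in 13 genes and negative in 8. Of 18 genes of sphingolipid and fatty acid synthesis 4 rose, and 2 without control 1, control 4, paraquat 1 or paraquat 3. Cers2, which makes the ceramides with very long chains found in myelin, went from 887, 1024, 820.3 and 954 to 1440, 1287 and 1366 (0.57 ± 0.11, adjusted p = 0.00348). Elovl7, a fatty acid elongase, went from 392, 301, 303 and 376 to 467, 502 and 475 (0.50 ± 0.12, adjusted p = 0.0143). Both genes had paraquat values above the whole control range.

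Among other glia, Sox9 and Gfap rose of 15 astrocyte markers, at a list median of 0.22, and 4 markers were called without control 2 or paraquat 2. Sox9, a glial transcription factor, went from 413, 365, 515 and 494 to 709.6, 641 and 725 (0.64 ± 0.11, adjusted p = 0.000701). Gfap, the intermediate filament of astrocytes, went from 304, 395, 296 and 292 to 445, 478 and 451 (0.52 ± 0.13, adjusted p = 0.0124), where control 2 stood above the other controls but below every paraquat library. None of 15 microglial, 15 endothelial and mural, 9 ependymal or 20 cell division genes was called by limma, edgeR, voom or DESeq2. At an unadjusted limma p under 0.05 there were 1 microglial and 1 endothelial gene higher and 2 microglial genes and 1 cell division gene lower. Of 8 meningeal markers Igf2 rose and of 5 choroid plexus markers Prlr, and of 20 interferon response genes limma called none (4 lower at an unadjusted p under 0.05, and 1 lower by edgeR and by DESeq2), at a median of −0.44. The choroid plexus markers summed to 147 to 222 in control and to 242, 155 and 377 in paraquat 1, 2 and 3, and Prlr lost its call without control 2 (adjusted p = 0.0641), paraquat 1 (0.174) or paraquat 3 (0.126), while Igf2 lost its call without control 1 (0.0891) or paraquat 3 (0.16). Ttr, the most abundant transcript of choroid plexus, stood at 1.04, 12.4, 4.26 and 73.7 in control and at 40.7, 14.2 and 144 after paraquat.

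**Figure D3:**
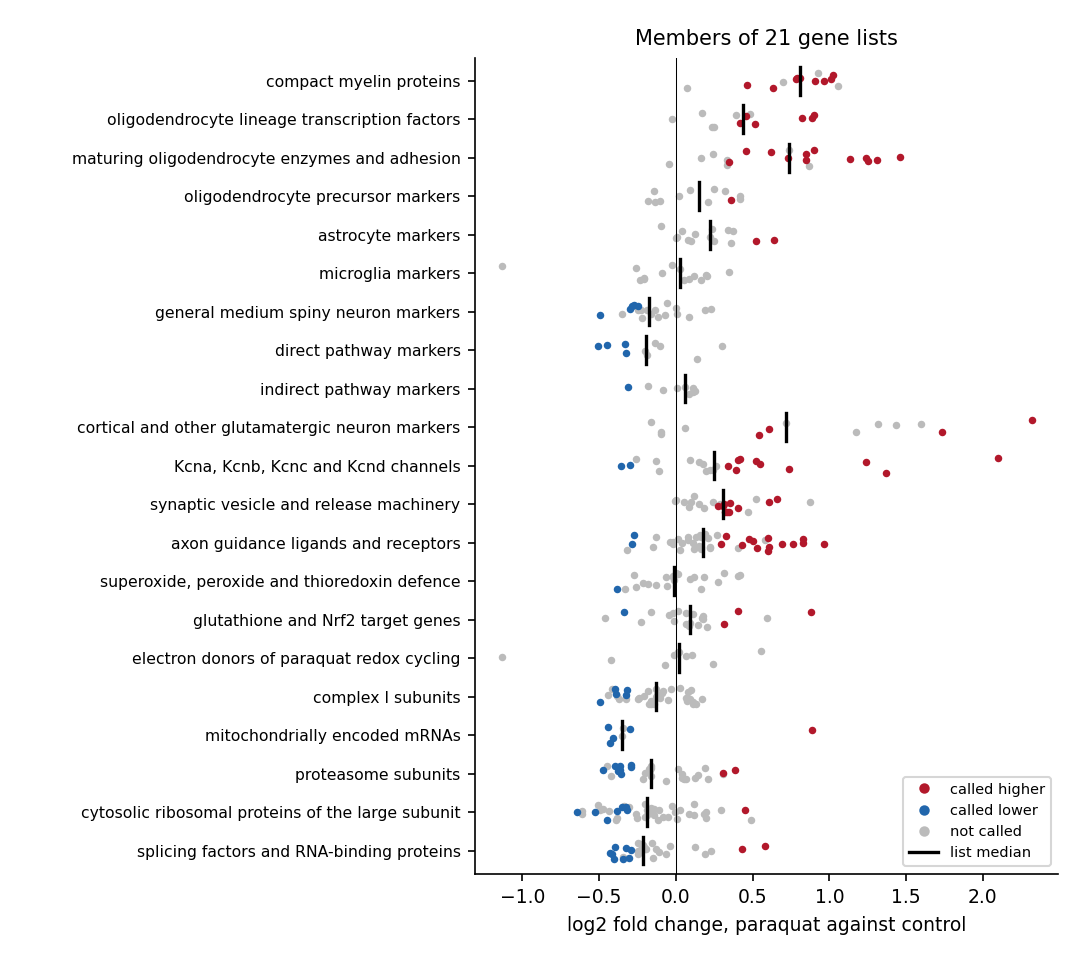
Each point is a tested gene of 1 of 21 lists, placed by its log2 fold change of paraquat against control, with called rises in red, called falls in blue and the list median as a black bar. The 3 lists of maturing oligodendrocytes sit at medians of 0.44 to 0.81, while the lists of antioxidant defence and of electron donors to paraquat sit near 0.

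Several genes of voltage-gated potassium channels were higher after paraquat. Of 22 tested subunits and partners 10 rose and 2 fell, with 8 to 10 rises and 0 to 3 falls without any 1 library and 8 rises and 1 fall with the GC trend removed. The Kcnc genes encode the Kv3 channels that let neurons fire fast trains. Kcnc4 went from 53.9, 85.7, 60.6 and 60 to 130.0, 157 and 174 (1.24 ± 0.15, adjusted p = 3.63e-05). Kcnc2 went from 136, 153, 138 and 144 to 262, 409.9 and 471 (1.37 ± 0.23, adjusted p = 0.00279). In Kcnc2 the control libraries were nearly level, and paraquat 1 was the lowest of the exposed ones. Kcnc1 rose by 0.41 ± 0.09, and removing the GC trend ended its call (adjusted p = 0.0653).

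Among the Kcna genes, which encode low-threshold Kv1 channels, Kcna3 went from 30, 10.3, 10.6 and 8.85 to 69.5, 47.7 and 63.9 (2.1 ± 0.29, adjusted p = 0.000175). Control 1 stood far above the other controls in that gene and still below every paraquat library. Kcna1, a channel of axons, went from 678, 396, 413 and 466 to 807, 913 and 685 (0.74 ± 0.14, adjusted p = 0.00384), and its lowest paraquat library lay just above control 1. Kcna2 rose by 0.34 ± 0.09 and Kcna6 by 0.42 ± 0.11. Kcna2 lost its call without control 3 (adjusted p = 0.0706), control 4 (0.0529), paraquat 1 (0.0753) or paraquat 2 (0.0663), and Kcna6 without control 1 (0.0739) or paraquat 2 (0.109). Kcnip3, an auxiliary calcium sensor of Kv4 channels, rose from 494, 581, 543 and 539.7 to 846, 756 and 724 (0.52 ± 0.10, adjusted p = 0.00191). In the other direction, the auxiliary subunit gene Kcnab1 fell by 0.36 on the log2 scale (SE 0.09) from 4526, 4208, 3874 and 4552 to 3382, 3470 and 3165. Its call was lost without control 1 (adjusted p = 0.0502) or paraquat 3 (0.0676). Kcna4 fell by 0.30 (SE 0.09), a call lost in 5 of the 7 fits that left out a library, up to an adjusted p of 0.179 without paraquat 3. Kcna1, Kcna2, Kcna4, Kcna6, Kcnab1 and Kcnc1 lie outside the naming rule and were chosen after their values were seen.

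**Figure D4:**
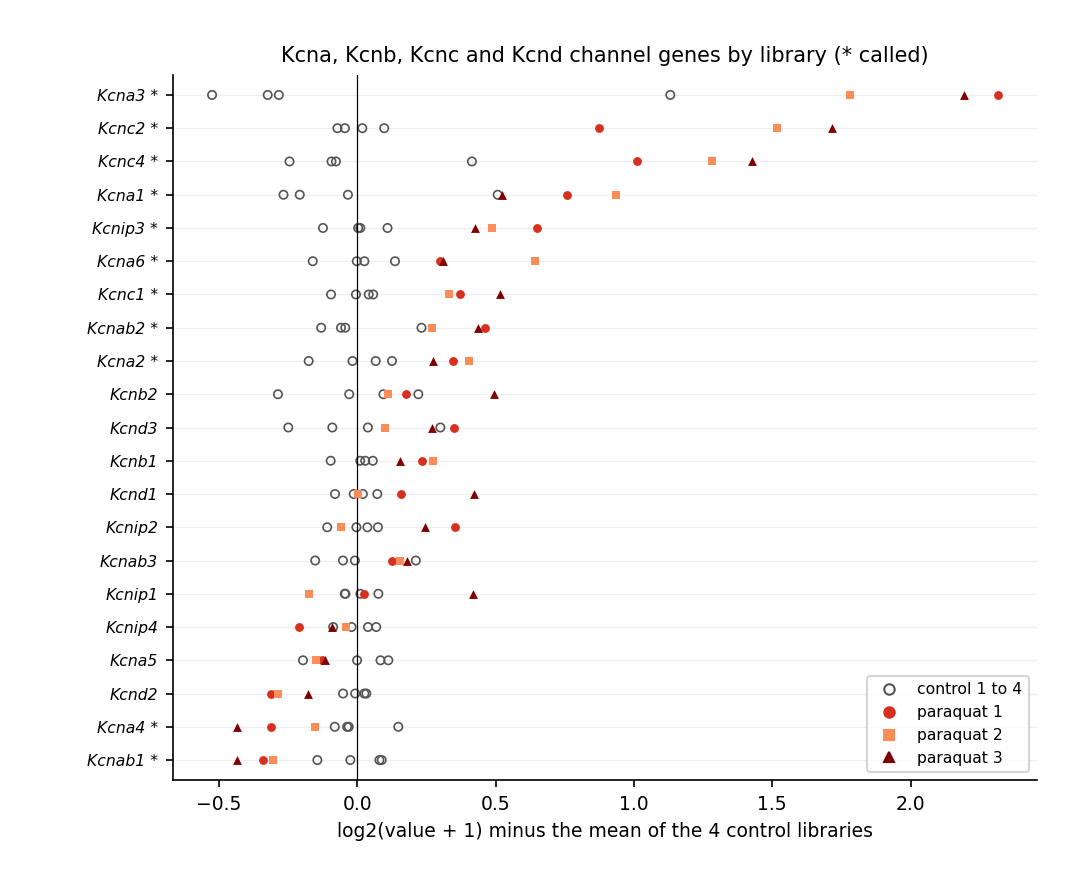
Rows are 21 of the 22 tested Kcna, Kcnb, Kcnc and Kcnd channel genes and their partners, ordered by fold change, and the horizontal axis gives log2(value + 1) minus the control mean for each library. Called genes carry an asterisk, with Kcna3, Kcnc2 and Kcnc4 farthest to the right. In all 11 of them the paraquat symbols do not overlap the control circles, which are the values the calls rest on.

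Genes of other channels were called in both directions, beside 6.34% of all tested genes called higher and 4.06% called lower. Kcnj6, the GIRK2 subunit of potassium channels gated by G proteins, went from 8.29, 10.3, 17 and 13.8 to 23.8, 70 and 27.7 (1.51 ± 0.31, adjusted p = 0.00393), and its list of 24 inward rectifier, tandem pore and related channels had 3 rises and 0 falls (1 rise without control 1 and 5 without paraquat 2). Cacna2d3, an auxiliary calcium channel subunit, fell from 2137, 2574, 2026 and 2090 to 1442, 1411 and 1605 (−0.57 ± 0.09, adjusted p = 0.000607), on a list of 23 sodium and calcium channel genes with 1 fall and 3 rises. That list had 0 rises without paraquat 3, 5 falls without control 2, 3 falls without paraquat 2, and 1 rise and 2 falls with the GC trend removed.

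Receptor and peptide genes of both directions were called. Gabrb2, a GABA-A receptor subunit, rose from 522, 313, 390.5 and 446 to 782, 876 and 841 (1.02 ± 0.13, adjusted p = 8.16e-05), while its list of 19 GABA genes had 4 rises and 2 falls (1 rise without control 1, control 4 or paraquat 3 and 2 without control 3). Of 17 ionotropic glutamate receptor genes 4 rose and 2 fell (1 rise without paraquat 3, 2 without control 1, and 2 rises and 0 falls with the GC trend removed), with the kainate receptor subunit Grik3 at 504, 572, 533 and 503 against 659, 685 and 695 (0.36 ± 0.08, adjusted p = 0.00731). Grm2, a presynaptic metabotropic glutamate receptor, went from 7.25, 12.4, 18.1 and 10.8 to 26.8, 71 and 28.3 (1.63 ± 0.36, adjusted p = 0.00654). In Grm2, as in Kcnj6, paraquat 2 exceeded the other exposed libraries by more than they exceeded the controls. Chrna4, a nicotinic acetylcholine receptor subunit, went from 126, 144, 154 and 137 to 202, 247 and 345 (0.88 ± 0.14, adjusted p = 0.000434).

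Oprm1, which encodes the mu opioid receptor, went from 30, 21.7, 31.9 and 14.7 to 67.5, 54.8 and 88.9 (1.51 ± 0.23, adjusted p = 0.000426). Pnoc, the precursor of nociceptin, went from 10.4, 23.7, 17 and 17.7 to 77.4, 41.6 and 45.4 (1.61 ± 0.27, adjusted p = 0.000701), and Cartpt, which encodes the CART peptide, from 13.5, 17.5, 28.7 and 15.7 to 57.6, 53.8 and 41.5 (1.43 ± 0.26, adjusted p = 0.00163). All 3 genes were low, at under 100 normalised reads in every library, and separated the groups without overlap. On their list of 15 opioid and peptide genes 4 rose and 2 fell, the falls being Tac1 and Penk.

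Of 23 genes of synaptic vesicles and transmitter release 10 rose and none fell, at a median of 0.31, with 4 to 10 rises without any 1 library (4 without control 1 or paraquat 3) and 6 with the GC trend removed. Rab3a, the GTPase of synaptic vesicles, went from 1777, 1945, 2226 and 2068 to 3069, 2663 and 3426 (0.60 ± 0.09, adjusted p = 0.000233). Sv2a, a vesicle glycoprotein, went from 1808, 2019, 1940 and 1944 to 2396, 2359 and 2385 (0.30 ± 0.07, adjusted p = 0.00875), with paraquat libraries level among themselves. Pclo, a scaffold of the release site, rose by 0.32 ± 0.08. On the receiving side, 6 of 19 postsynaptic scaffold genes rose and none fell, led by Shank1 from 332, 395, 503 and 450.2 to 617, 855 and 719 (0.80 ± 0.15, adjusted p = 0.00335). The postsynaptic count was 2 without control 1, paraquat 1 or paraquat 3.

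Axon guidance genes gave 14 rises and 2 falls among 42 tested, at a median of 0.18, with 6 rises without paraquat 3 and 11 with the GC trend removed. Unc5d, a netrin receptor, went from 99.5, 79.5, 120.2 and 100.3 to 187, 197 and 198 (0.96 ± 0.14, adjusted p = 0.000175). Sema4d, a semaphorin, went from 879.5, 929, 812 and 988 to 1361, 1254 and 1498 (0.60 ± 0.11, adjusted p = 0.00221), and Ephb2, an ephrin receptor, from 58, 52.6, 64.9 and 59 to 97.3, 116 and 102 (0.83 ± 0.16, adjusted p = 0.00298). In each of the 3 the paraquat values lay above the whole control range. Among 25 synaptic adhesion genes 5 rose and 1 fell, with 2 rises without paraquat 1 or with the GC trend removed and 3 without control 1. Of all tested genes 6.34% were called higher and 4.06% lower. Slitrk1 rose by 0.58 ± 0.11 and the receptor phosphatase Ptprd by 0.43 ± 0.09, while Cntn4, a contactin, fell from 701, 557, 632 and 702 to 449, 529.7 and 419 (−0.48 ± 0.10, adjusted p = 0.00582). In the extracellular matrix Hapln4, a link protein of perineuronal nets, rose from 52.8, 79.5, 58.5 and 53.1 to 146, 136 and 288 (1.56 ± 0.32, adjusted p = 0.00886), and Reln, the secreted guide of neuronal positioning, fell from 2010, 2126, 1861 and 2027 to 1473, 1491 and 1616 (−0.39 ± 0.08, adjusted p = 0.00328). The GDNF family receptor Gfra2 rose from 30, 48.5, 58.5 and 44.2 to 86.3, 115 and 93.5 (1.13 ± 0.20, adjusted p = 0.00163).

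Several identity genes of medium spiny neurons were lower. Of 20 general markers 5 fell and none rose, at a median of −0.18, and of 10 markers of the direct pathway type, which carries the D1 receptor, 4 fell, at a median of −0.20 (2 without paraquat 1 or paraquat 2). Rarb, a retinoic acid receptor of these neurons, fell from 4361, 3924, 4200 and 4454 to 3028, 3162 and 2840 (−0.49 ± 0.08, adjusted p = 0.000401). Tac1, the substance P precursor of the direct pathway, fell from 4226, 3474, 3396 and 3744 to 2827, 2780 and 2536 (−0.45 ± 0.10, adjusted p = 0.0059), and Isl1, a transcription factor of the same cells, from 279, 276, 252 and 268 to 189.5, 181 and 197 (−0.51 ± 0.12, adjusted p = 0.00861). These 3 genes separated the groups completely. Drd1 itself stood at 3036, 2855, 3169 and 3193 in control and at 2670, 2614 and 2705 after paraquat and was not called (−0.20 ± 0.08, adjusted p = 0.0922). Its groups did not overlap either, and 1 of 20 alternative fits called it lower.

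Of 9 markers of the indirect pathway type Penk fell, at a list median of 0.06, and no test compared the pathway types with each other. Penk, the enkephalin precursor, went from 16636, 20375, 15908 and 18780 to 15013, 12768 and 15541 (−0.31 ± 0.10, adjusted p = 0.0486). Its call was lost without any 1 library except control 3, up to an adjusted p of 0.192 without paraquat 2. Drd2 was not called (0.06 ± 0.09). The count of fallen general markers was 1 without control 3 or paraquat 1 and 2 without control 1, control 4, paraquat 2 or paraquat 3.

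Markers of cortical and other glutamatergic neurons were higher in the paraquat libraries. Of 13 tested 4 rose (1 without paraquat 3 and 2 without control 3), at a median of 0.72, and in 7 the paraquat libraries lay wholly above the controls. Of all tested genes 6.34% rose, and in 11% the paraquat libraries lay wholly above the controls. The mean difference of the list from control was 0.44, 1.56 and 0.57 in paraquat 1, 2 and 3 against at most 0.30 in a control library, so that all 3 lay above the controls and paraquat 2 farthest. The markers summed to 2696, 3976, 3353 and 3409 in control and to 3599, 7345 and 4196 after paraquat. Slc17a7, the vesicular glutamate transporter 1 of cortical neurons, stood at 203, 544, 452 and 479 in control and at 609, 2703 and 736 after paraquat, and Tbr1, a cortical transcription factor, at 87, 231, 220.2 and 260.5 against 301, 1161 and 279. Neither was called (adjusted p = 0.121 and 0.185). Paraquat 2 also had the lowest mean of the direct pathway markers, at −0.27 from the control mean on the log2 scale against −0.13 and −0.14 in paraquat 1 and 3. The part of these marker levels in the falls of medium spiny neuron genes and in the rises of oligodendrocyte genes, Grm2 and Kcnj6 was not tested. Without paraquat 2, 2 of the 20 general and 2 of the 10 direct pathway markers were called lower, and Rarb, Tac1, Isl1, Grm2 and Kcnj6 were among the genes that kept their calls without it. Cux2, a factor of upper cortical layers, went from 163, 206, 187 and 167 to 233, 303 and 255 (0.54 ± 0.13, adjusted p = 0.00921).

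Of the genes tied to the known chemistry of paraquat, 0 of 10 electron donors, 1 of 22 defence genes and 4 of 22 glutathione and Nrf2 genes were called, beside 10.4% of all genes. None of 10 tested electron donors and oxidase subunits was called by limma, edgeR, voom or DESeq2, with 1 higher and 1 lower at an unadjusted limma p under 0.05 and a median of 0.02. Por stood at 194, 201, 195 and 166 in control and at 228, 199 and 184 after paraquat (0.11 ± 0.12), with overlapping groups. Of 22 genes of superoxide, peroxide and thioredoxin defence 1 fell, Gpx8, and none rose, at a median of −0.01. The superoxide dismutase gene Sod1 stood at 509, 657, 526 and 503 against 496, 527 and 472 (−0.13 ± 0.10, adjusted p = 0.419), and Sod2 at 1291, 1282, 1151 and 1145 against 1164, 1279 and 1049 (−0.07 ± 0.09, adjusted p = 0.667). Catalase (Cat) stood at 457, 402, 563 and 535 against 553, 551 and 718 (0.31 ± 0.12, adjusted p = 0.0891). In all of these the groups overlapped. Leaving out control 1, 2 or 4 or paraquat 1 or 3 ended the call of Gpx8 (adjusted p up to 0.189).

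Among 22 glutathione genes and targets of the stress factor Nrf2, 3 rose and 1 fell, with 1 rise without control 3, control 4, paraquat 1 or paraquat 3 and with the GC trend removed. Gstm1, a glutathione transferase, rose from 137, 105, 222 and 146 to 263, 244 and 310.1 (0.88 ± 0.17, adjusted p = 0.00448). Gsr, the reductase that restores glutathione, fell from 433, 445, 424 and 434 to 328, 335 and 369 (−0.34 ± 0.09, adjusted p = 0.0191), a call lost without paraquat 1 (0.0896). The classical targets were not called: Hmox1 stood at 85, 95, 97.9 and 95.3 against 98.2, 77.1 and 135, and Nqo1 at 20.7, 24.8, 22.3 and 30.5 against 16.9, 16.2 and 19.1. The values of Hmox1 overlapped, while those of Nqo1 were lower in every paraquat library (−0.46 ± 0.23, adjusted p = 0.206). Gclc, the limiting enzyme of glutathione synthesis, was also lower in all 3, at 764, 708, 750.1 and 727 against 602, 635 and 648 (−0.23 ± 0.08, adjusted p = 0.0744), and Txnrd1 was level (0.02 ± 0.10). A missed threshold here does not show that the groups were equal.

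Stress lists beyond redox defence gave few calls in either direction, beside 6.34% of all genes called higher and 4.06% called lower. Of 15 heat shock genes Bag3, a cochaperone of selective autophagy, rose from 26.9, 23.7, 51.1 and 45.2 to 83.4, 58.9 and 107 (1.18 ± 0.22, adjusted p = 0.0022), and 1 gene fell. Of 18 genes of the p53 response 3 rose, among them Plk3, a stress kinase, by 0.64 ± 0.15 (adjusted p = 0.00877, lost without paraquat 3 at 0.0569). The p53 count was 0 without paraquat 3 and 1 without control 1, control 4 or paraquat 1. Of 16 genes of the integrated stress response and 18 chaperones of the endoplasmic reticulum 1 fell on each list and none rose. Without control 4 or without paraquat 3 no gene of these last 2 lists or of the heat shock list was called lower.

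Of 11 tested dopamine genes 1 rose and 1 fell, beside 6.34% of all tested genes called higher and 4.06% called lower. The mRNA of Th, whose enzyme makes the dopamine precursor, stood at 91.2, 112, 104 and 88.5 in control and at 94.3, 61.9 and 88.9 after paraquat (−0.29 ± 0.16, adjusted p = 0.237). Slc6a3, the dopamine transporter, was low, at 12.4, 13.4, 13.8 and 9.83 against 6.95, 7.1 and 6.58, and its lower paraquat values did not pass the test (adjusted p = 0.252). The vesicular transporter gene Slc18a2 was not analysed here. Of 18 genes of inherited parkinsonism none rose and 2 fell. One of the falls, Vps35 of the retromer (−0.33 ± 0.10, adjusted p = 0.0337), lost its call without 5 of the 7 libraries (control 1, 3 or 4 or paraquat 1 or 3, up to an adjusted p of 0.158).

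Some nuclear genes of complex I were lower. Of 37 complex I subunits, the entry point of electrons and an early target in toxin models of parkinsonism, 5 fell and none rose, at a median of −0.13 and beside 4.06% of all genes called lower. Ndufs4 went from 654, 649, 543 and 572 to 395, 458 and 430.0 (−0.50 ± 0.11, adjusted p = 0.0059) and Ndufb5 from 2044, 2157, 1797 and 1852 to 1468, 1471 and 1553 (−0.39 ± 0.09, adjusted p = 0.00764). Both genes were lower in every paraquat library than in any control. Without control 1, control 2 or paraquat 3 the count was 2, and without paraquat 1 it was 3. Of 39 subunits of complexes II to V 2 rose and 2 fell, near the shares of all genes, with 0 falls without control 1, control 2, paraquat 1 or paraquat 3. Atp5d, a subunit of ATP synthase, rose from 649.5, 783, 758 and 677 to 1257, 1057 and 1509 (0.82 ± 0.12, adjusted p = 0.000236).

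Of 7 tested mitochondrially encoded mRNAs 4 fell and mt-Nd6 rose. The highest of them, mt-Nd1, went from 420129, 466228, 412974 and 453994 to 288928, 316294 and 390834 (−0.41 ± 0.11, adjusted p = 0.0171), and its call was lost without paraquat 1 (0.112) and with the GC trend removed (0.293). With that trend removed, or without paraquat 1, none of the 7 was called lower, and the number was 1 without control 2 or 4 and 2 without control 1 or paraquat 2. mt-Nd6, the mRNA made from the opposite strand of mitochondrial DNA, went from 87, 43.3, 55.3 and 68.8 to 116, 119.7 and 109 (0.89 ± 0.18, adjusted p = 0.00335). It overlaps mt-Nd5, and the use of strand in counting is not given in the sources used here, so the reads of such pairs cannot be told apart, which holds also for Atp5d with Cbarp, Rab3a with Mpv17l2, Snhg6 with Mcmdc2 and Zfp575 with Ethe1.

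Genes of protein synthesis, protein breakdown and splicing were lower in part. Of 44 ribosomal proteins of the large subunit 7 fell and 1 rose, at a median of −0.19, and 2 were called lower without paraquat 3 and 3 without control 1. Rpl5 went from 311, 256, 274 and 280.2 to 166, 208 and 165 (−0.65 ± 0.12, adjusted p = 0.00147) and Rpl4 from 972, 967, 1053 and 989.9 to 780.0, 764 and 794 (−0.35 ± 0.08, adjusted p = 0.00693). Ribosomal protein genes have many processed copies in the genome, and how the authors' counting divided shared reads is uncertain. Of 30 proteasome subunits 8 fell and 2 rose, with Psmd12 of the regulatory particle at 395, 436, 455 and 418 against 273, 310.5 and 337 (−0.47 ± 0.10, adjusted p = 0.00519). That count was 2 without control 1, paraquat 1 or paraquat 3, 4 without control 4, 5 without control 3 and 4 with the GC trend removed. Of 31 splicing factors and RNA-binding proteins 8 fell and 2 rose, and Srsf7 went from 1608, 1356, 1625 and 1702 to 1152, 1253 and 1090 (−0.43 ± 0.10, adjusted p = 0.00751). With the GC trend removed 3 were called lower, and the number was 1 without paraquat 1, 3 without control 1, control 4 or paraquat 3, 4 without control 3 and 17 without control 2.

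Genes of retinoic acid and thyroid hormone handling were called in both directions, beside 6.34% of all tested genes called higher and 4.06% called lower. Cyp26b1, which breaks down retinoic acid, stood at 16.6, 9.29, 8.51 and 7.86 in control and at 41.7, 57.8 and 87.6 after paraquat (2.45 ± 0.35, adjusted p = 0.000341), the lowest exposed library above the highest control. Of its list of 12 retinoic acid genes 1 rose and 2 fell, Rarb being one of the falls. Of 12 thyroid hormone genes 1 rose and 2 fell, and Slco1c1, a transporter of the hormone, fell from 1346, 1470, 1436 and 1454 to 928, 1025 and 1187 (−0.45 ± 0.09, adjusted p = 0.00327).

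Of 30 genes of DNA methylation and histone modification 4 rose and none fell, and 6 were called higher with the GC trend removed. The shares of all tested genes were 6.34% called higher and 4.06% called lower. Kmt2c, a histone methyltransferase, went from 1195, 822, 879 and 936 to 1369, 1449 and 1266 (0.52 ± 0.10, adjusted p = 0.0021). Tet1, which oxidises methylcytosine, went from 863, 567, 776 and 728 to 1044, 943 and 1009 (0.46 ± 0.11, adjusted p = 0.00861). Of 20 imprinted genes 4 rose and 1 fell (1 rise without paraquat 3, 2 without control 1 and 2 with the GC trend removed), with Zim1, which is expressed from the maternal copy, at 38.3, 22.7, 41.5 and 27.5 against 67.5, 50.7 and 88.2 (1.06 ± 0.22, adjusted p = 0.00397).

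Of the 12 largest rises among genes with a mean of at least 50, 5 belong to lists above (Nrn1, Hapln4, Gjb1, Kcnc2 and Ndrg1) and 7 to none of them. Klhl11, an adaptor of a ubiquitin ligase (chromosome 11, 100462614 to 100472741 in GRCm38), went from 78.7, 31, 37.2 and 36.4 to 162, 148 and 189 (1.93 ± 0.20, adjusted p = 1.77e-05). Xkr4, a membrane protein of the phospholipid scramblase family, went from 92.2, 57.8, 91.5 and 67.8 to 218, 199.9 and 313 (1.64 ± 0.16, adjusted p = 1.03e-05). Lcor, a corepressor of nuclear receptors, rose by 1.62 ± 0.20 and Slc9a7, a sodium and proton exchanger of the Golgi, from 53.9, 44.4, 38.3 and 32.4 to 130.0, 119.7 and 126 (1.57 ± 0.17). In Klhl11 control 1 stood above the other controls. Nrn1, a neuritin of the glutamatergic list, stood at 16.6, 35.1, 29.8 and 30.5 against 46.6, 242 and 69.1 (1.74 ± 0.50, adjusted p = 0.0453), a call lost without any 1 library except paraquat 1 (up to 0.113). Ndrg1, of maturing oligodendrocytes, rose by 1.31 ± 0.35, a call lost without control 1 (0.0666) or paraquat 1 (0.0888), 2 (0.0561) or 3 (0.074). The other rises on no list were Zfp575 (1.39 ± 0.27), Necab3 (1.38 ± 0.28) and the cholecystokinin receptor gene Cckbr (1.37 ± 0.31, lost under the replicate block with the GC trend removed at 0.0784), with Necab3 highest in paraquat 2 at 166 against 63.5 and 81 in paraquat 1 and 3.

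The largest falls in the same class were smaller than these rises, and several were noncoding or little studied transcripts. Snhg6, a host gene of small nucleolar RNAs, went from 128, 128, 122 and 122 to 66.5, 79.2 and 58.6 (−0.88 ± 0.17, adjusted p = 0.00208). The antisense transcript A230077H06Rik fell from 102, 114, 113 and 121 to 61.5, 60.9 and 60.6 (−0.87 ± 0.16), a gene with nearly level values within each group. Phex, an endopeptidase of phosphate regulation, fell from 165, 140.4, 122 and 150.4 to 59.5, 95.4 and 90.2 (−0.84 ± 0.17, adjusted p = 0.00458), and Ddx11, a DNA helicase, from 166, 194, 151 and 155 to 86.3, 106 and 95.5 (−0.79 ± 0.12, adjusted p = 0.000384). The noncoding transcript 3110039M20Rik (−0.73 ± 0.11) and the actin-binding protein gene Nexn (−0.69 ± 0.14) were also among these falls. By annotated class, 7.19% of protein coding genes were called higher and 3.99% lower, against 1.1% and 6.34% of lincRNA genes and 1.34% and 5.23% of processed pseudogenes.

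Calls followed transcript base composition. Of genes with a transcript GC content under 40%, 2.71% were called higher and 8.49% lower, and of those at 60% or more 21.8% were called higher and 0.161% lower. The median GC content was 55.2% for rises, 44.3% for falls and 49.2% for all tested genes. The correlation across genes of a library's deviation with GC content, a description of each library, was −0.378, 0.0717, −0.162 and −0.349 in control and 0.334, 0.0185 and 0.273 after paraquat. The groups overlapped in this measure, since control 2 lay above paraquat 2 (exact two-sided permutation test, p = 0.0857). With the trend removed from each library, 781 genes were called higher and 426 lower, and 837 of the 1617 calls were shared. The part of base composition in the other calls was not tested.

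**Figure D5:**
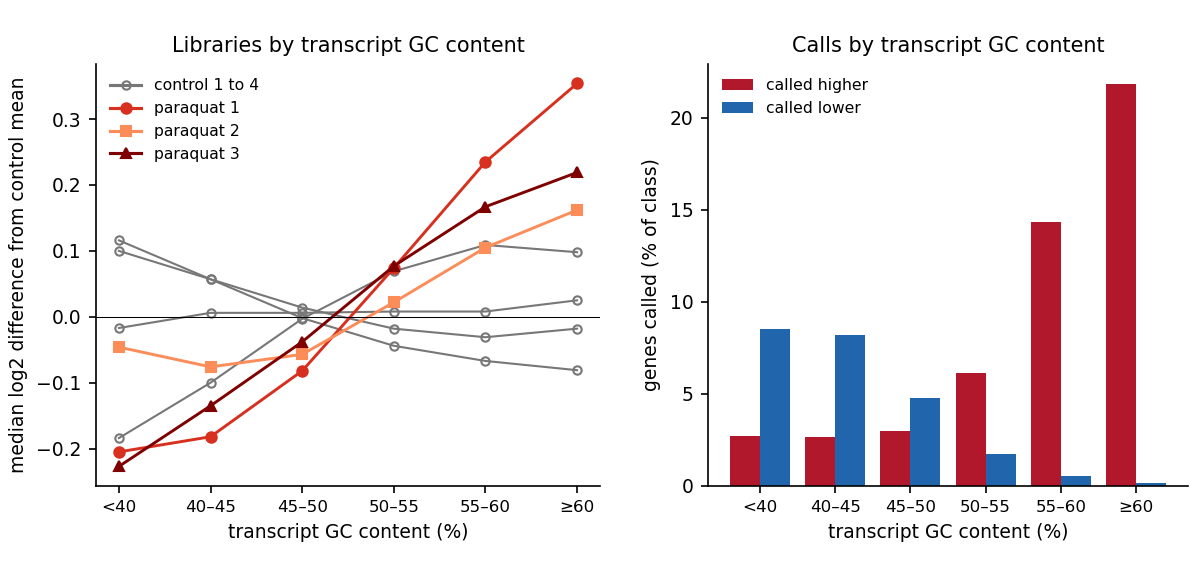
On the left, the median log2 difference of each library from the control mean is drawn over 6 classes of transcript GC content, and on the right the percentage of genes of each class called higher or lower. Paraquat 1 and 3 run from −0.205 and −0.227 in the lowest class to 0.354 and 0.219 in the highest, paraquat 2 and control 2 run the same way with smaller slopes, and control 1 and 4 run the opposite way.

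Direct comparison with the other exposures gave almost no calls. Against TiO2 nanoparticles limma called 0 of 15556 genes in either direction (0%), with 534 genes higher and 463 lower at an unadjusted p under 0.05. DESeq2 on the recovered reads called 6 higher and 3 lower, and edgeR and voom called 0. Against the mixture limma called 1 gene (0.00643%), with 1106 higher and 1129 lower at an unadjusted p under 0.05, where DESeq2 called 60 higher and 65 lower. These comparisons leave out the control libraries, and a missed threshold does not show that paraquat and the other exposures acted alike. For Mbp the mean was 29350 with TiO2 and 27789 with the mixture, for Kcnc2 194 and 302, and for Xkr4 326 and 231. The gene called against the mixture was Dbpht2, a lincRNA on chromosome 12 (74296668 to 74302008 in GRCm38), at 985, 944, 970.3 and 970.2 in control, 631, 711 and 604 after paraquat and a mean of 966 with the mixture. It fell against control (−0.58 ± 0.09, adjusted p = 0.000323) and lay below the mixture by 0.57 on the log2 scale. The call against the mixture ended without paraquat 1 (adjusted p = 0.252) or 3 (0.0717) and without mixture 1 (0.14), 2 (0.0569) or 4 (0.108).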

How the data were processed

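Striatal total RNA of mouse pups was sequenced after library preparation with the Lexogen SENSE total RNA kit, per the labels' protocols. Per the submitters' processing notes, the build was mm10 and the tools included DESeq2 2.1.8.3 and Bowtie2 2.3.2.2. The sources used here do not give the counter, annotation or use of strand. The authors deposited a normalised signal per gene and library, which behaves as whole reads divided by a size factor. Dividing by the value of 1 read gave a whole number within 0.001 reads for 100% of values, from which depth was taken.

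The main test was limma 3.58.1 (trend and robust) in R 4.3.3 on log2(value + 1), fitted to all 15 libraries after the edgeR 4.0.16 expression filter, which removed 13 genes, with Benjamini-Hochberg adjustment over 15556 genes and a threshold of 0.05. The scripts were tested on simulated data. Alternatives were count tests with edgeR, voom and DESeq2 1.42.0 on the recovered reads (edgeR called 1076 genes higher and 737 lower). Further alternatives were other pseudocounts (0.5 and 5), filters, scalings, a replicate block, removal of a GC trend, the Xist level as a covariate and leaving out each library. The groups share replicate numbers in the labels, but same-numbered control and paraquat libraries did not deviate together. The main test did not treat the numbers as pairs, since nothing in the labels says that they mark a litter or batch. Whether they do is unknown. Gene positions and transcript GC content came from GENCODE M21 (GRCm38), and promoters from RefSeq (GRCm38.p6).

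Genes named are the 12 largest non-overlapping rises and 12 largest falls with a mean of at least 50, up to 4 called genes of smallest p per list, and a set named whether called or not; others are stated as chosen after their values were seen. Some genes that the rule selects are not reported here. The members and lists were chosen with earlier results of these data known.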

Additional observations from a re-analysis of the deposited data

Results flagged for a closer look

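Of 114 genes named with values, 9 had 1 control library far from the other 3, by Dixon's criterion on the gap relative to the control range. Chance flags about 1 in 20 such groups. High values stood in control 1 for Pdgfra (939), Kcna3 (30), Cyp26b1 (16.6) and Klhl11 (78.7), in control 2 for Gfap (395) and Sod1 (657), and in control 4 for Ttr (73.7) and Necab3 (50.1). A low value stood in control 2 for Txnrd1 (384). The calls of Kcna3, Cyp26b1, Klhl11, Gfap and Necab3 held without the library concerned. Dbpht2 differed between the paraquat and mixture groups by −0.57 on the log2 scale (limma adjusted p = 0.0158).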

How the results depend on the processing

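The precision is limited by 3 paraquat libraries and by litter, sex and dose, which the labels do not give. With the Xist level as a covariate 1002 genes rose and 653 fell, and 1573 of the 1617 calls were shared. Without any 1 library, the rises against control numbered 396 to 996 and the falls 165 to 758, and the mitochondrial share differed by −3.6 to −2.65 percentage points. The replicate block gave 945 rises and 537 falls, of which 1348 calls were shared, and with the GC trend also removed it gave 419 falls. Of the compact myelin genes 6 were called with the block and 2 with the GC trend also removed, against 9. Cat, not called otherwise, passed with the block (0.35, adjusted p = 0.0109) and with the block and the GC trend removed (0.39, adjusted p = 0.00275). Same-numbered control and paraquat libraries correlated at 0.0222, −0.186 and 0.0265, and differently numbered ones at −0.29 to 0.285. These few values showed no pairing by number, but they cannot settle whether the numbers mark a litter or batch. Against TiO2, DESeq2 called 6 higher and 3 lower, the block 2 and 1, and the block with the GC trend removed 2 and 2, and leaving out a library gave 0 to 4 higher and 0 to 7 lower. Against the mixture, the fit of the compared groups alone gave 1 higher and 7 lower, DESeq2 60 and 65, voom 4 lower, TMM rescaling 3 lower, the GC trend removed 1 and 2, and the block with it 3 and 2, and leaving out a library gave 0 to 1 higher and 0 to 2 lower. Directions of genes that were not called turned as follows, and the cause was not tested. With the GC trend removed Drd2 was at −0.06, Sod2 at 0.06 and Por at −0.09, and with the block added they were at −0.05, 0.03 and −0.12, with Slc7a5 at 0. Leaving out a library gave −0.01 to 0.16 for Drd2, −0.14 to 0.01 for Sod2, −0.1 to 0.3 for Hmox1 and −0.08 to 0.1 for Txnrd1, with the turned sign without paraquat 3 in each and also without control 2 for Txnrd1 (−0.02).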
